A study of Mus musculus with 7 samples.

Results

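The genes described here encode the RNA-binding proteins that assemble on new transcripts and splice them. They were taken from the array by symbol: the serine- and arginine-rich (SR) splicing factors Srsf, the small nuclear ribonucleoprotein (snRNP) genes Snrp, the heterogeneous nuclear ribonucleoprotein (hnRNP) genes Hnrnp, the SF3A and SF3B subunits, and the U2AF subunits. Pseudogene symbols were left out, and each gene was represented by its brightest probe set with a single gene name. This gave 43 genes, read by 60 probe sets, of 8251 named genes in all. They comprised 9 SR proteins, 7 snRNP proteins, 16 hnRNP proteins, 8 SF3A and SF3B subunits and 3 U2AF subunits, on 17 chromosomes.

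RNA from the livers of female mice had been measured on 7 Affymetrix U74Av2 arrays, each labelled as a mouse. The mice were phenotypically normal (+/+ or +/df), had free access to food and were killed at 24 to 26 months of age. The description field of the labels names the Ames dwarf genotype (df/df) instead, while the source names and series title give normal animals, and the group follows these. All 7 arrays form 1 group, numbered as replicates 1, 2, 3, 4, 6, 7 and 8, so the data give each gene's signal and its spread between animals, with no contrast between conditions. No label says in so many words that each RNA is from its own animal, and the p-values measure the spread between these samples, called animals here, which may be partly technical.

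Splicing removes introns through the spliceosome, which is built from snRNPs on each intron. SR proteins bind exons and recruit the machinery, whereas many hnRNP proteins bind introns or exons and block or redirect it. U2AF binds the end of the intron, and the SF3A and SF3B complexes then anchor the U2 snRNP at the branch point. Hepatocytes, like other cells, need these proteins for nearly every transcript they make.

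The arrays were alike, and the tissue was liver by its markers. Pearson correlations of log2 signals between pairs of arrays, across genes, ranged from 0.961 to 0.975. All 9 measured hepatocyte markers passed the filter on level, with a median signal of 22825. The median was 32.3 for 9 neuronal markers and 23.9 for 4 bile duct markers. Of the neuronal markers 5 lay below the floor on every array, but 2 passed the filter, Tubb3 at 628 and Stmn2 at 295. The summed signal of 9 macrophage markers ranged from 6277 to 8561 over the arrays, that of 7 endothelial markers from 2753 to 4379 and that of 8 skeletal muscle markers from 914 to 9979. The muscle sums stood apart on replicates 1 and 2, at 9979 and 4518, against 914 to 1196 on the other 5 arrays. Acta1, the skeletal muscle actin, made up much of this, at 5991 and 2034, against 10.5 to 100.4. Of the 8 muscle markers, Ckm and Myh4 went the other way and were lowest on replicate 1, at 143.8 and 102.6. Without replicates 1 and 2, an alternative added after seeing the data, 41 genes again passed the filter on level. The counts past the spread test below were then the same, and the part of the other cells was not tested. In whole tissue, fewer cells of a type and less RNA per cell cannot be told apart. By their bacterial control transcripts, added as spike-ins, the arrays fell into 2 sets, with a mean log2 signal of these controls of 10.20 to 10.24 on replicates 6, 7 and 8 and of 10.64 to 10.97 on replicates 1 to 4.

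Splicing genes mostly had signals above the median of named genes in old liver, and spread between animals about as much as other genes. Their median signal was 609.99, in arbitrary intensity units, against 243 for all named genes, and 39 of the 43 lay above the median of named genes. A mean of at least 200.1, the filter on level used for tests, was reached by 41 of 43, or 95.3%, against 54.3% of all named genes. Hnrnpa1, which binds exonic silencers, and Snrpa1, a U2 snRNP protein, lay below the filter, at 162 ± 37.8 and 167 ± 30.3 (SD, n = 7). Of the 43, 6 (13.95%) were in the top 10% of signals of named genes, a share slightly above that of named genes. The median percentile of the group was 72.3, so its middle lay in the upper part of the range. Because probe sets bind their targets unequally, a rank by signal is not a rank by transcript amount.

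**Figure D1:**
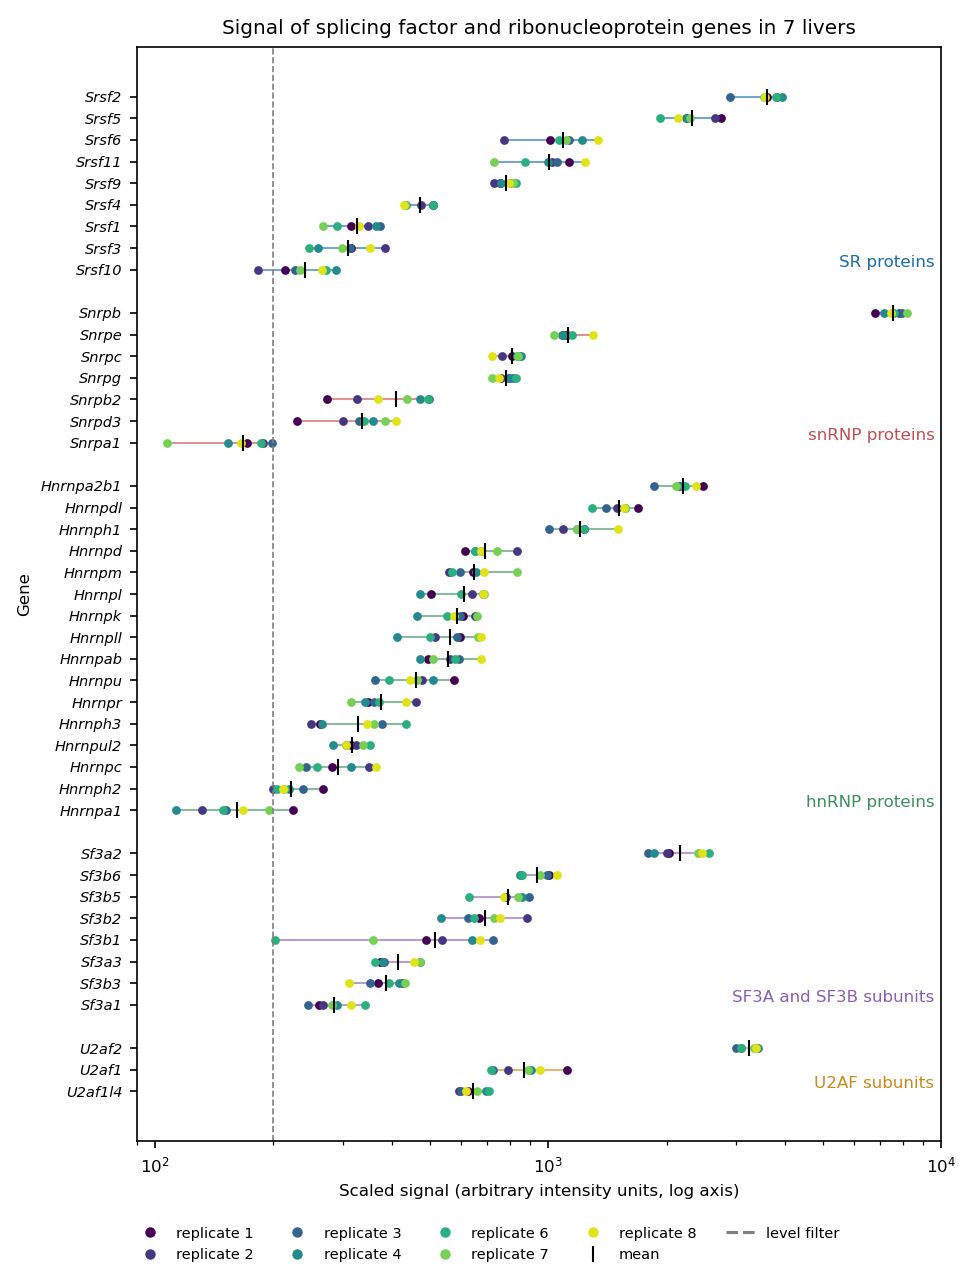
Scaled signal of the 43 genes on a log axis, grouped by role, with 1 point for each of the 7 animals, a tick at the mean and a dashed line at the filter on level (200.1). Points of most genes lie close together; those of Sf3b1 run from 202.5 to 722.

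The start regions of 4 of these genes are shown because they span the range of spread: Srsf9 and Snrpg were the steadiest of the group, Srsf2 was the brightest gene with an entry in the sequence table, and Sf3b1 varied the most. Each sequence is the 250 bases before the annotated start, from RefSeq (GRCm38.p6), written 5′ to 3′ along the gene. Capitals mark matches to the GC box (GGGCGG), the CCAAT box (CCAAT), the TATA box (TATAAA) or an ETS site (CCGGAAG), on either strand.
Srsf2, chr11:116853095-116853344, minus strand: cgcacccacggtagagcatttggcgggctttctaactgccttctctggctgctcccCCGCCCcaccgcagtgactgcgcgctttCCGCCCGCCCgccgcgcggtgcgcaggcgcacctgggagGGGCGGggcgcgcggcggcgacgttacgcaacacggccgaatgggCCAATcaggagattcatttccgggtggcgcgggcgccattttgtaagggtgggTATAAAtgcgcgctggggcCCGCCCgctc
Srsf9, chr5:115326927-115327176, plus strand: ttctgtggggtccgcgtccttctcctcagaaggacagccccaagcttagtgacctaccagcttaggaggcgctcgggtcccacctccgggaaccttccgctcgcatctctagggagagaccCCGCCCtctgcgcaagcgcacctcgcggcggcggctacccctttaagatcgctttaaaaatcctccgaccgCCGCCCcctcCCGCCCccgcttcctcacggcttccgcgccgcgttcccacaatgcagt
Snrpg, chr6:86371290-86371539, plus strand: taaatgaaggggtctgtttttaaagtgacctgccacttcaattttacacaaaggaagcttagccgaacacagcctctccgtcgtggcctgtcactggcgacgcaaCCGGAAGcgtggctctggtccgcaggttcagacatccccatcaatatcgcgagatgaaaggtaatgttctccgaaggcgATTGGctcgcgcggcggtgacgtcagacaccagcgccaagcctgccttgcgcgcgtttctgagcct
Sf3b1, chr1:55027479-55027728, minus strand: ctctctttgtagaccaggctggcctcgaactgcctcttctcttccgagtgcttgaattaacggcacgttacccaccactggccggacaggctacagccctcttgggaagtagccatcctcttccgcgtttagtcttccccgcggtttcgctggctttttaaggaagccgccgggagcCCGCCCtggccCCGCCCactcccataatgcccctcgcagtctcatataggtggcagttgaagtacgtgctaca

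The Srsf2 window held GC boxes, a CCAAT box and a TATA box whose first base lies 29 bases before the start. That of Srsf9 held 3 GC boxes and that of Sf3b1 held 2, while Snrpg had an ETS site and a CCAAT box. The table held 38 of the 43 genes, with no entry for Hnrnpll, Hnrnpul2, Sf3b5, Snrpb and U2af2. A GC box was found in 26 of the 38 windows (68.4%), against 54.8% of 6576 genes named on the array. An ETS site was found in 13 of 38 (34.2%), against 12.3%, a CCAAT box in 17 (44.7%), against 35.9%, and a TATA box in 4 (10.5%), against 9.34%. An E-box (CACGTG) stood in 1 of 38 (2.63%), against 8.42%, and the YY1 site searched (AAGATGGC) in 0 of 38, against 1.76%. GC boxes can overlap one another, as they do in Srsf2. The median number of CG dinucleotides was 19.5 in these windows and 14 in those of the named genes. Such matches describe the letters and were not tested for use.

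Among SR proteins, Srsf2 and Srsf5 were the brightest by the probe sets used. A second Srsf2 probe set that passed the filter had a mean of 858, below the 2325 of Srsf5. Both Srsf2 probe sets carry the suffix _s_at. Srsf2, which binds exonic enhancers (NCBI gene 20382), ranged from 2905 to 3925 with a median of 3608. Replicate 3 held the lowest value and the other 6 lay between 3546 and 3925. The log2 SD of Srsf2 was 0.14, and 0.06 without replicate 3.

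Srsf5, known from rat as a gene induced in regenerating liver, is NCBI gene 20384. Its lowest, median and highest values were 1930, 2256 and 2755, on replicates 6, 4 and 1. Without replicates 1 and 2, which had the highest muscle sums, its log2 SD was 0.10, against 0.18 on all 7. Srsf6 ranged from 774 on replicate 2 to 1340.2 on replicate 8, with a median of 1111 and a log2 SD of 0.25. Without replicate 2, that SD was 0.15, and without replicates 1 and 2 it was 0.13. Srsf11, a further SR family member, ranged from 730 on replicate 7 to 1240 on replicate 8, with a median of 1020.4 and a log2 SD of 0.25. Without replicates 1 and 2, the log2 SD of Srsf11 was larger, 0.29.

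Srsf9 was the steadiest gene of all 41 tested (NCBI gene 108014). It ranged from 728 to 830.2 around a median of 797, with a log2 SD of 0.07, or 0.41 of the SD expected for genes of its level. Highest over lowest animal came to 1.14-fold. The remaining SR proteins had lower signals, with Srsf4 at 472 ± 38.5, Srsf1 at 327 ± 39.0, Srsf3 at 310.2 ± 48.3 and Srsf10 at 241 ± 37.0. All 9 SR proteins had a log2 SD under 0.3, against 82.7% of all tested genes.

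The snRNP genes fell into a steady and a more variable part. Snrpb, which encodes the SmB proteins of the core ring shared by most spliceosomal snRNPs (NCBI gene 20638), had the highest signal of the whole group. It ranged from 6763 to 8170 with a median of 7568, at the 98.2th percentile of named genes. Its log2 SD was 0.09, and the animals differed by at most 1.21-fold. That probe set carries the suffix _r_at, given where design rules were relaxed, and a second Snrpb probe set lay below the floor on all 7 arrays, at a mean of 21.0.

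Snrpg, another protein of the core ring (NCBI gene 68011), ranged from 719 to 828.8 with a median of 795, and Snrpc, a U1 snRNP protein, ranged from 722 to 853 with a median of 832. Their log2 SDs were 0.07 and 0.09. Snrpe, also of the ring, had 1124 ± 83.5, with its highest value, 1297, on replicate 8. The log2 SD of Snrpe was 0.10, and 0.05 without replicate 8.

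Snrpb2, a U2 snRNP protein, ranged from 274.6 on replicate 1 to 497 on replicate 3 with a median of 437, a 1.81-fold range. Its log2 SD of 0.33 was the second largest of the 41 tested genes. That probe set also carries the suffix _r_at. A second Snrpb2 probe set, below the filter on level at a mean of 67.6, had its highest value, 86.5, on replicate 1. Snrpd3, of the core ring, was lowest on replicate 1, as the brighter Snrpb2 probe set was, at 230.1. Snrpd3 had a median of 339 and a highest value of 411 on replicate 8. The log2 SD of Snrpd3 was 0.27, and 0.16 without replicate 1. Without both arrays with the highest muscle sums, replicates 1 and 2, the log2 SD was 0.18 for Snrpb2 and 0.13 for Snrpd3. The lowest value of both genes was among those left out, and the part of muscle was not tested. The median log2 SD of the tested splicing genes was 0.18 with and without these arrays. Replicate 1 was the lowest animal for Snrpb, Snrpb2 and Snrpd3, and replicate 7 for as many, namely Snrpa1, Snrpe and Snrpg. Of all tested genes, 16.6% were lowest on replicate 1 and 13.6% on replicate 7.

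The hnRNP genes formed the largest role group and had a median signal of 559.8. Hnrnpa2b1, which binds pre-mRNA and sorts RNAs in the cytoplasm (NCBI gene 53379), was lowest on replicate 3, at 1862, and highest on replicate 1, at 2469, with a median of 2196. Hnrnpdl, a relative of Hnrnpd, ranged from 1293 on replicate 6 to 1689 on replicate 1 with a median of 1562. Hnrnph1, which binds runs of G, ranged from 1002 on replicate 3 to 1509 on replicate 8, with a median of 1187. These 3 genes varied by 1.31- to 1.51-fold between the extreme animals. Second probe sets of Hnrnpa2b1 and Hnrnpdl that passed the filter had lower means, 495 and 375.

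Hnrnph3, a relative of Hnrnph1, had the largest log2 SD of the 15 tested hnRNP genes, from 250.1 on replicate 2 to 434 on replicate 6, with a median of 346 and an SD of 0.31. Hnrnpc, which packages nascent transcripts, ranged from 232.9 on replicate 7 to 365 on replicate 8 with a median of 282.6. Hnrnpll, a regulator of alternative splicing first studied in lymphocytes, ranged from 412 on replicate 4 to 676 on replicate 8 with a median of 585. In contrast, Hnrnpul2 ranged from 284 to 352 around a median of 314, with a log2 SD of 0.10 on its brighter probe set. Its second probe set, which also passed the filter, had a mean of 247 and a larger log2 SD, 0.22.

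The other hnRNP genes lay between these in spread. Hnrnpd, which also controls the decay of AU-rich mRNAs, had 692 ± 72.8, Hnrnpm had 649 ± 92.5, Hnrnpl had 609.99 ± 89.2 and Hnrnpk had 586 ± 66.3. Hnrnpab was at 555 ± 69.8, Hnrnpu, a nuclear scaffold protein, at 462 ± 71.1, Hnrnpr at 377 ± 53.0 and Hnrnph2 at 222 ± 23.8. Replicate 4 held the lowest value of 6 of the 16 hnRNP genes, namely Hnrnpa1, Hnrnpab, Hnrnpk, Hnrnpl, Hnrnpll and Hnrnpul2, and of 14.9% of all tested genes.

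The U2AF subunits, which recognise the end of the intron, were steady except for U2af1. U2af2, the large subunit that binds the polypyrimidine tract (NCBI gene 22185), ranged from 3007 to 3426 with a median of 3343 and a log2 SD of 0.08. U2af1, the small subunit that reads the terminal AG, ranged from 717 on replicate 6 to 1118 on replicate 1, with a median of 886 and a log2 SD of 0.23. Both subunits were lowest on replicates 2, 3 and 6, where U2af2 read 3007 to 3101 and U2af1 717 to 792, and the other 4 animals lay above, at 3343 to 3426 and at 886 to 1118. U2af1l4, a paralogue of the small subunit, had 642 ± 46.0 and was also lowest on replicates 2 and 3, but highest on replicate 6.

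Sf3b1 was the exception in the SF3 group. This gene encodes the SF3B subunit that holds the branch point (NCBI gene 81898). Its probe set gave 489, 537, 722 and 639 on replicates 1 to 4, and 202.5, 358 and 670.3 on replicates 6, 7 and 8. Replicate 6 lay lowest and replicate 7 next, while the other 5 animals lay between 489 and 722. The animals spanned a 3.57-fold range, and Sf3b1 was the 1 gene of 41 tested whose highest animal exceeded its lowest by over 2-fold, against 10.8% of all tested genes. The log2 SD was 0.65, or 3.39 times the SD expected at its level, and it was 0.37 without replicate 6.

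The other SF3 subunits varied less. Sf3b6, which contacts the branch point adenosine, had 937 ± 83.4, Sf3b5 792 ± 85.8, Sf3b2 692 ± 111 and Sf3b3 386 ± 44.1. Sf3a3 and Sf3a1, subunits of SF3A, had 414 ± 49.7 and 286 ± 33.1. Sf3b5 was lowest on replicate 6, as Sf3b1 was, at 629, against 771 to 893 on the other 6 animals.

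Sf3a2, a further SF3A subunit (NCBI gene 20222), followed the split of the arrays by spike-in signal. Its values were 2565, 2402 and 2455 on replicates 6, 7 and 8, against 2032, 2002, 1791 and 1861 on replicates 1 to 4, so the sets did not overlap. The difference on the log2 scale was 0.37 ± 0.094 (SE), with an unadjusted p of 0.00256 and an adjusted p of 0.543 by limma across all 4481 tested genes. Sf3a2 was the 1 gene of 41 whose sets did not overlap, against 7.34% of all tested genes. Hnrnph3 had an unadjusted p of 0.040 and an adjusted p of 0.707 in the same limma fit, with means of 380.1 on replicates 6, 7 and 8 and 289.2 on replicates 1 to 4. By that unadjusted rule 2 of 41 splicing genes were counted, against 6.9% of all tested genes, and 0 by the adjusted rule, against 0%. The sets were drawn from the controls and not from a label, so the step that separates them is unknown.

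No splicing gene passed the test for more spread than genes of its level. In the limma fit across 4481 genes, 0 of the 41 tested passed at an adjusted p under 0.05, against 0% of all tested genes. At an unadjusted p under 0.05, 1 of 41 was counted, against 6.72% of all tested genes. That gene was Sf3b1, with an unadjusted p of 0.0058 and an adjusted p of 0.383. The next gene, Snrpb2, had an unadjusted p of 0.133 and an adjusted p of 0.952. When the SDs of 200 of these 4481 genes were multiplied at once in simulated data, 0 were found at 3-fold, 7 at 5-fold and 166 at 10-fold. A moderate excess of spread was thus not detectable with 7 arrays. For a single raised gene the adjustment is stricter, and that case was not simulated. Acta1, with a log2 SD of 2.87 against an expected 0.30, had an adjusted p of 0.096 in the limma fit and did not pass.

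**Figure D2:**
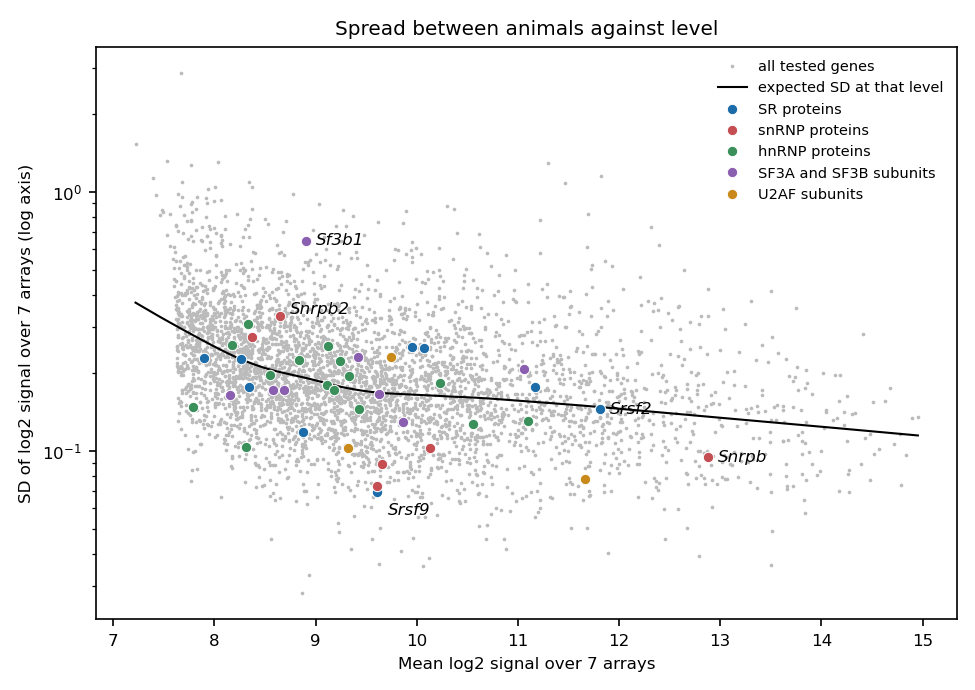
SD of log2 signal over 7 arrays (log axis) against mean log2 signal for the 4481 tested genes (grey), with the SD expected at each level as a line and the 41 tested splicing genes coloured by role. Sf3b1 lies above the line at 0.65, whereas Srsf9 lies below it at 0.07.

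As a group, the 41 genes spread about as much as other genes. Their median log2 SD was 0.18, equal to the 0.18 of all tested genes to 2 decimals, and their median SD over the expected SD was 0.96, against 0.99. An SD below the expected one was seen in 25 of 41 (61.0%), against 50.9% of all tested genes. An SD under 0.3 was seen in 38 of 41 (92.7%), against 82.7%. The median of the highest over the lowest animal was 1.42-fold for splicing genes and 1.44-fold for all tested genes. The snRNP and U2AF genes had the smallest median log2 SDs, each 0.10, over 6 and 3 tested genes, and the SR, hnRNP and SF3 genes had 0.18, 0.18 and 0.17.

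No pair of probe sets for the same gene passed a test of whether both order the animals alike. In 6 genes both the brightest and another probe set passed the filter on level. Across the 7 animals Pearson's r between the pair was 0.406 for Sf3b1 (exact permutation p = 0.382, rho = 0.393, p = 0.396), 0.236 for Hnrnpdl, 0.233 for Srsf2, 0.233 for Hnrnpul2, 0.094 for Hnrnpa2b1 and 0.044 for Sf3a2. Spearman's rho ranged from -0.036 for Sf3a2 to 0.393 for Sf3b1. The exact two-sided permutation p-values of r ranged from 0.382 to 0.926 and those of rho from 0.396 to 0.963, and after adjustment over the 6 pairs all were 0.926 and 0.963. With the 2 animals farthest from the median left out, r ranged from -0.852 for Sf3b1 to 0.460 for Hnrnpa2b1.

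The Sf3b1 pair differed in spread. Its dimmer probe set, at 400.2 ± 37.9, gave 452, 452, 403 and 385 on replicates 1 to 4 and 363, 367 and 379 on replicates 6, 7 and 8. Replicates 6 and 7 were thus lowest on both probe sets, but by 1.25-fold in all on the dimmer one, whose log2 SD was 0.13. The second Sf3a2 probe set, which carries the suffix _r_at, gave 1295, 1450.2 and 1580.0 on replicates 6, 7 and 8, against 2204, 2026, 1502 and 878 on replicates 1 to 4. The split seen on the brighter Sf3a2 probe set, which has the suffix _f_at and can read related genes, was absent from the second.

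**Figure D3:**
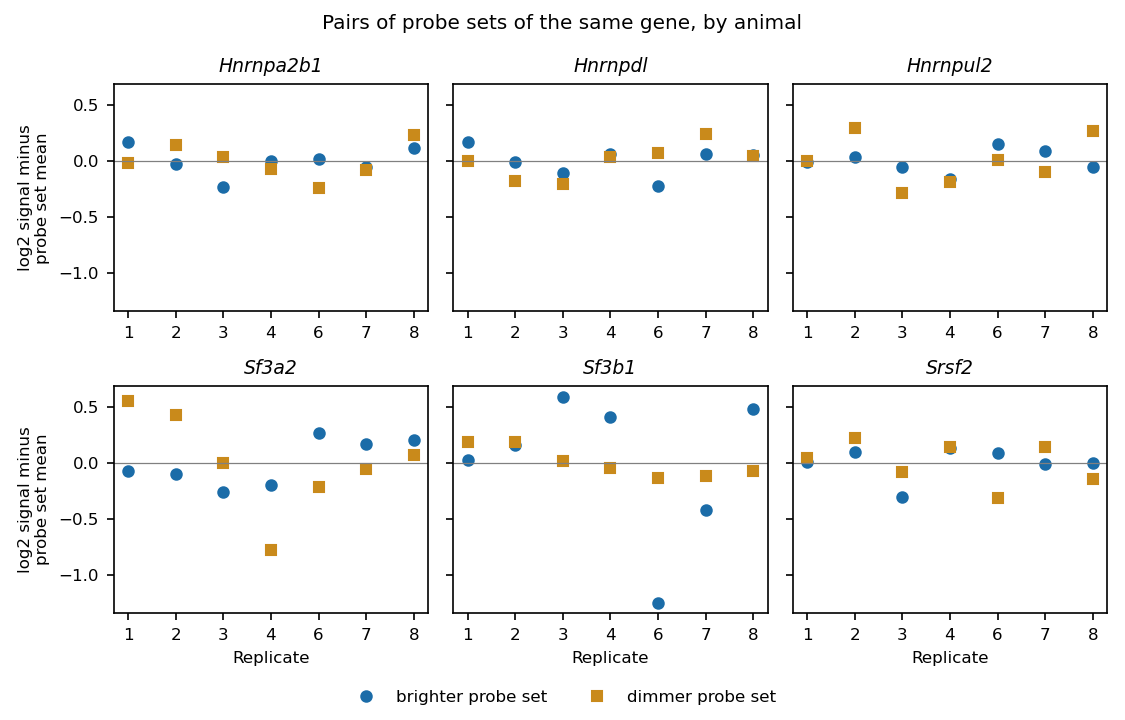
log2 signal minus the probe set's own mean in each of the 7 animals, for the brighter (circles) and dimmer (squares) probe set of 6 genes. On replicate 6 the brighter Sf3b1 probe set falls far below zero while the dimmer one stays near it.

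Shared movement of the splicing genes across animals was slight. Over all pairs of the 41 tested genes the mean Pearson correlation across the 7 arrays was 0.012, and over all pairs of tested genes 0.001, given as a description. Within roles it was -0.061 for SR proteins, 0.078 for snRNP proteins, 0.084 for hnRNP proteins, -0.023 for SF3 subunits and 0.372 for the 3 U2AF subunits. Replicate 8 held the highest value of 9 of the 41 genes (22.0%, against 13.7% of all tested genes) and the lowest of 3 (7.32%, against 13.0%). The median deviation of the 41 genes from their own means was 0.10 on the log2 scale on replicate 8, where 26 of 41 lay above their mean and the median over all tested genes was 0.0022. On the other 6 animals it lay between -0.02 and 0.04. As a sign of RNA quality, signal at the 3' end over that at the 5' end on replicate 8 was 0.834 for Gapdh and 1.69 for beta-actin, within the ranges of 0.788 to 0.907 and 1.31 to 1.78 over all 7 arrays. The summed signal of the 9 hepatocyte markers was lowest on replicate 8, at 146456, against 147423 to 179946 on the others. Alb, Apoa1, Ttr and Cps1 each had their lowest value on replicate 8, whereas Fgb had its highest there, at 8494. Ahsg and Cyp2e1 were lowest on replicate 6, Arg1 on replicate 7 and Hnf4a on replicate 4. The summed macrophage markers read 7613 on replicate 8, below 8561 on replicate 7 and above 6277 to 7150 on the other 5 arrays. The part of these cells in the shift was not tested.

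**Figure D4:**
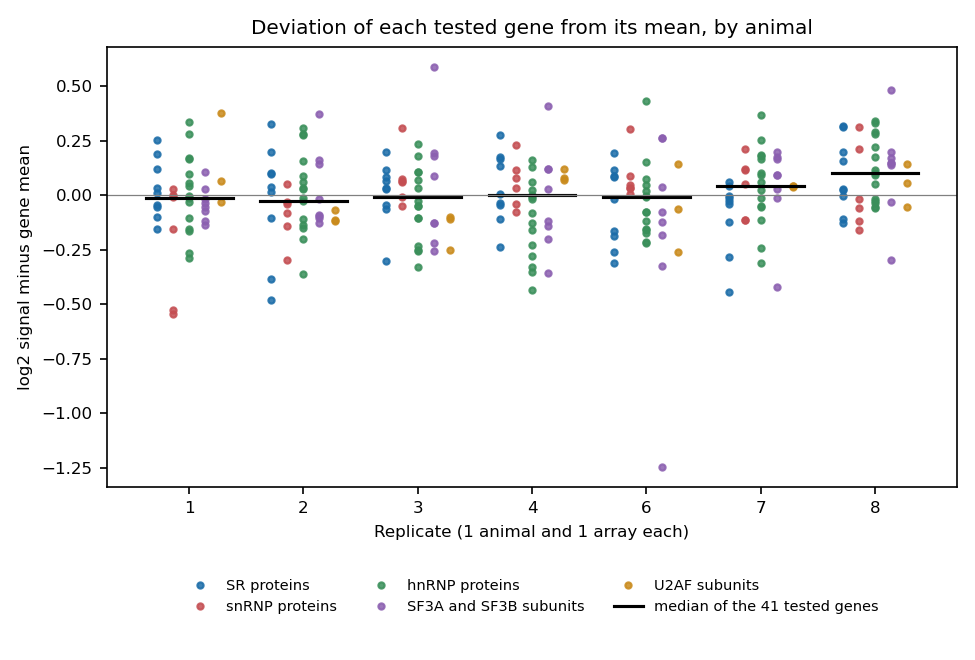
log2 signal minus the gene's mean for each of the 41 tested splicing genes (points, coloured by role) in each of the 7 animals, with the median as a black bar. The bar lies at 0.10 for replicate 8 and between -0.02 and 0.04 for the others, and the lowest point is Sf3b1 on replicate 6.

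Other genes of the splicing pathway were also tested for spread. Of 76 listed spliceosome core proteins and helicases 50 were measured and 37 tested, with a median signal of 347 and a median log2 SD of 0.17. Among them, Prpf8, the scaffold of the catalytic centre, had 1797 ± 224, Bud31 1563 ± 123 and the helicase Ddx39b 1172 ± 109. Snrnp27 and the helicase Ddx46 had the largest log2 SDs, 0.31 and 0.29. Of 31 listed SR-related proteins and SR kinases 24 were measured and 13 tested, with a median log2 SD of 0.21. The nuclear import receptor Tnpo1 had 1864 ± 331, the kinase Clk1, which phosphorylates SR proteins, 1402 ± 148, and Thrap3 1133 ± 170. The kinase Srpk1 and the SR protein importer Tnpo3 had the largest log2 SDs, 0.35 and 0.33.

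Of 75 other regulators 47 were measured and 22 tested, with a median log2 SD of 0.17. The cold shock protein Ybx1 had 7234 ± 1457, and ranged from 4683 on replicate 4 to 9703 on replicate 7. The poly(C)-binding proteins Pcbp1 and Pcbp2 had 4387 ± 299 and 2955 ± 272, and Pcbp4 had the largest log2 SD, 0.34. Ybx1 had an unadjusted p of 0.038 and an adjusted p of 0.645 in the spread test, and was the 1 gene below 0.05 unadjusted of 72 tested on these 3 lists, against 6.72% of all tested genes. In the limma fit 0 of the 72 passed after adjustment.

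Other housekeeping groups were taken by the start of the symbol alone, so genes that only share a prefix can be among them. The median signal was 1055 for 37 genes with ribosomal protein symbols, 1199 for 38 with proteasome symbols and 422 for 49 with translation initiation and elongation factor symbols. That of splicing genes, 609.99, lay below the first 2 and above the third. Of these lists, 14 of 37, 4 of 38 and 14 of 49 genes did not lie above the median of named genes, against 4 of 43 splicing genes. Median log2 SDs of their tested genes were 0.15, 0.17 and 0.16. SDs over the expected SD had medians of 1.12 for ribosomal protein genes, 1.01 for proteasome genes and 0.94 for translation factors, against the 0.96 of splicing genes. These values describe the lists, and the differences between them were not tested.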

How the data were processed

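The authors deposited linear intensities, with a value for each probe set on each 1-colour array; per the labels' description, arrays were read on a Hewlett-Packard GeneArray scanner, and neither the software nor the scaling is described there. The trimmed mean (2% cut at each end) was already 500.36 to 500.39 on every array. Of 12488 probe sets, 66 were controls, 10833 had a single gene, 396 had several and 1193 had none in the platform annotation. Gene identifiers of 10817 matched RefSeq (GRCm38.p6), which changed 0 symbols.

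Arrays were rescaled to 1 trimmed mean, floored at 0.1 of it (50.04) and put on the log2 scale. Signals in the text are before the floor. Tests took the 4481 named genes whose mean reached 0.4 of it (200.1). Spread was tested with limma 3.58.1 in R 4.3.3: an intercept-only fit and a robust prior that follows the level. F tests were one-sided (upper tail), with Benjamini-Hochberg adjustment and a threshold of 0.05. The spike-in sets were compared in a limma fit of 3 against 4 arrays. Both fits were tested on simulated data; the second recovered 180 of 200 genes changed by 1 log2 unit, with 12 false calls. Probe set pairs used all 5040 pairings. Python 3.11.15, numpy 2.4.6, pandas 2.3.3, scipy 1.17.1 and matplotlib 3.10.9 were used. Values with n = 7 come from all 7 arrays, whose number limits the precision.

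The genes and lists were chosen with earlier results of these data known. Named with their ranges were the 8 genes of highest signal, the 8 of largest and the 5 of smallest log2 SD, those with an unadjusted p under 0.05 and those with several probe sets past the filter; of each further list, the 3 of highest signal and the 2 of largest log2 SD. The motifs, the printed sequences, the remarks on which replicate was lowest in several genes, and the comparison of spike-in sets were chosen after the values were seen.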

Additional observations from a re-analysis of the deposited data

Results flagged for a closer look

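In 3 of the 43 splicing genes (6.98%) 1 animal stood far from the others by Dixon's criterion for 7 values. The nominal rate of the criterion is about 1 gene in 20. The share over all tested genes was not counted, so this count does not set the splicing genes apart. Srsf2 on replicate 3 had 2905, with the next lowest animal at 3546 and the highest at 3925, and the gap was 0.662 of the log2 range. Sf3b5 on replicate 6 had 629, with the next at 771 and the highest at 893, a gap of 0.58 of the range. Snrpa1 on replicate 7 had 107.5, with the next at 153.3 and the highest at 198.2, also a gap of 0.58. Sf3b1 did not meet the criterion, since replicate 7 lay between replicate 6 and the rest.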

How the results depend on the processing

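The count of splicing genes past the spread test was 0 of those tested under all 22 alternatives, and 881 of 881 single log2 SDs lay on the same side of the threshold, with a lowest adjusted p of 0.222. In the main fit 0 of all 4481 tested genes passed, so these counts had little room to differ. The count at an unadjusted p under 0.05 was 0 with the mean of all probe sets and 0 to 1 with 1 replicate left out, 0 without replicate 6, where Sf3b1 had log2 SDs of 0.36 and 0.37. The median signal was 555 with plain _at probe sets only, against 609.99, as 8 genes were read by suffixed probe sets. The median log2 SD ranged from 0.16 to 0.19. Without 1 replicate, 13 genes had a log2 SD smaller by over 1.5 times, taking for each gene the replicate whose loss lowered it most. These were Hnrnph2 and Snrpd3 without replicate 1, Hnrnpd and Srsf6 without 2, Srsf2 and Hnrnpa2b1 without 3, and Hnrnpk without 4. The rest were Sf3b1 and Sf3b5 without 6, Hnrnpm without 7, and Snrpe, Snrpc and Hnrnph1 without 8. The share of all tested genes with such a drop was not counted, so this list does not set the splicing genes apart. The count of genes differing between the array sets at an unadjusted p under 0.05 ranged from 1 to 4, with 1 without replicate 1, 2, 6 or 7 and 4 without replicate 8. For neither unadjusted count was the share of all tested genes counted under the alternatives, so these counts do not set the splicing genes apart. With the array set as a term, chosen after seeing the data, the log2 SD of Sf3b1 was 0.58 and that of Sf3a2 0.07, against 0.21. Of the 6 probe set pairs 0 passed under any alternative, but r changed sign when 1 replicate was left out: it ranged from -0.238 (without replicate 8) to 0.280 for Hnrnpa2b1, from -0.0332 (without replicate 4) to 0.440 for Hnrnpul2 and from -0.523 (without replicate 4) to 0.204 for Sf3a2. Without replicate 6, r was 0.626 for Srsf2, 0.604 for Hnrnpdl and 0.0458 for Sf3b1, against 0.233, 0.236 and 0.406 on all arrays. The cause was not tested. Without both replicates 1 and 2, an alternative chosen after seeing the data, the counts past the spread test were 0 and, unadjusted, 1. The log2 SDs of Hnrnpd, Hnrnph2, Snrpb2, Snrpd3, Srsf10, Srsf5 and Srsf6 were then smaller by over 1.5 times, and the share over all tested genes was not counted. Others were larger, among them Sf3b1 at 0.79, Hnrnpll at 0.30 and Srsf11 at 0.29, against 0.65, 0.25 and 0.25 on all arrays. The median log2 SD was 0.18 in both cases. The number of arrays limits these values. No paired analysis was possible because all samples form 1 group.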
